A study of Rattus norvegicus with 12 samples.

Results

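The windows described here are 211 stretches of 100 bp on the rat autosomes at which methylated DNA immunoprecipitation followed by sequencing (MeDIP-Seq) gave far more reads from ventral prostate stromal cells than from ventral prostate epithelial cells of control lineage rats. They were chosen in the 6 control lineage pools alone, 3 of each cell type, from a genome of 27820300 windows. Of these, 26187330 windows lay on the 20 autosomes, and 1381769 of them had a count of at least 60 when summed over the control pools. A window was taken when the lowest stromal pool lay above the highest epithelial pool and the mean of the stromal pools was at least 3 times that of the epithelial pools, in normalised read count (CPM, the count divided by the pool's total and multiplied by 1e6). The 6 vinclozolin lineage pools took no part in the choice, which kept 0.0153% of the windows of sufficient count, and all tests were made in them.

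The rats were outbred Hsd:Sprague Dawley SD animals of the F3 generation. Their F0 generation great-grandmothers had been injected during gestation, on days 8 to 14, with 100 mg/kg/day of vinclozolin, an antiandrogenic fungicide, or with the vehicle dimethyl sulfoxide alone, and no later generation was treated. Prostates came from males of 19 to 21 days, before the age at which disease appears, and each pool combined the tissue of several rats of a lineage, so that the spread between pools is a spread between groups of rats. There were 3 epithelial control, 3 stromal control, 3 epithelial vinclozolin and 3 stromal vinclozolin pools. The fractions were made by collagenase digestion, settling and repeated low speed spins, which leaves stromal cells in the supernatant. Their purity was not checked here, since DNA counts carry no expression of marker genes.

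Methylation of cytosines, in mammals mostly where a cytosine is followed by a guanine, is copied to daughter strands at cell division and differs between cell types. Epithelial cells form the secretory lining of the prostate gland, and the stroma around it holds smooth muscle cells and fibroblasts that answer to androgen and signal to the epithelium. In MeDIP an antibody against methylated cytosine pulls down single stranded fragments, and the number of reads over a place rises with its methylation but also with its number of methylatable sites, so a CPM is a relative level and not a percentage. A pool holds many cells, and a change in methylation per cell cannot be told apart from a change in the mix of cells.

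Depth was low at a single window. The counts summed to between 57135700 and 112304623 per pool, with a read counted in each window it covers. The 211 windows had a summed control count of 60 to 119 with a median of 66, while all tested windows had a median of 86. In the vinclozolin pools the summed count of the same windows ran from 33 to 184 with a median of 72. A stromal control pool had a median count of 15 to 19 in these windows and an epithelial control pool one of 4 to 8. Many windows stood close to the limits of the choice, as 102 had a summed control count of 60 to 65 and 52 had a ratio of 3 to under 3.1, and another 77 windows with separate pools missed the choice with a ratio of 2.9 to under 3.

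The levels in the control pools follow from the choice and are given as a description. The median CPM over the 211 windows was 0.0660, 0.0917 and 0.0835 in the 3 epithelial control pools and 0.263, 0.249 and 0.257 in the 3 stromal control pools. The log2 ratio of the stromal over the epithelial mean ran from 1.59 to 2.54 with a median of 1.71. In the vinclozolin pools, the median CPM was 0.109, 0.0915 and 0.0938 in epithelial cells and 0.164, 0.151 and 0.153 in stromal cells. Every stromal pool of the vinclozolin lineage thus had a higher median than every epithelial pool of that lineage, with a narrower gap than in the pools that were used for the choice.

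**Figure D1:**
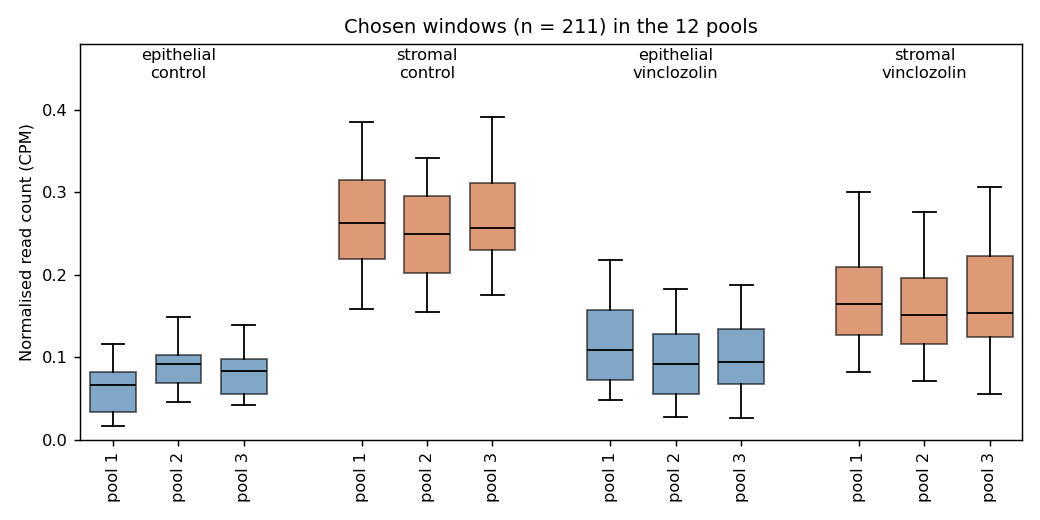
Normalised read count (CPM) of the 211 chosen windows in each of the 12 pools, with boxes from the lower to the upper quartile, the median as a line and whiskers from the 5th to the 95th percentile of windows. The 3 stromal vinclozolin pools have medians of 0.164, 0.151 and 0.153 CPM and the 3 epithelial vinclozolin pools medians of 0.109, 0.0915 and 0.0938 CPM, while the gap in the control pools was set by the choice.

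The question put to the vinclozolin pools was whether windows with more methylation in stromal control pools also had more methylation in stromal than in epithelial cells of other rats. The mean stromal CPM was higher than the mean epithelial CPM in 180 of the 211 windows (85.3%) and lower in 31, against 46.5% higher among all tested windows. The log2 ratio in the vinclozolin pools had a median of 0.70, with quartiles of 0.21 and 1.20 and a range from -0.93 to 2.20. All tested windows had a median of -0.03, with quartiles of -0.24 and 0.18. In 99 windows (46.9%) all 3 stromal pools lay above all 3 epithelial pools, which held for 6.12% of all tested windows. The opposite order held in 2 windows (0.948%), against 8.25% of all tested windows. A mean ratio of at least 3 was kept in 16 windows (7.58%), against 0.0147% of all tested windows. When 1 control pool was left out and a summed count of 60 was still asked of the other 5, 11 to 85 of the 211 windows were chosen again, and 69 to 195 had fallen under the count limit. Without epithelial control pool 1 the rule took 217 windows, of which 61 (28.1%) had separate vinclozolin pools, with a median log2 ratio of 0.30. The share of separate windows among all windows that met the limit in those 5 pools is not given.

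In the vinclozolin pools, edgeR's quasi-likelihood test with Benjamini-Hochberg adjustment over all 1381769 tested windows called 25 of the 211 windows (11.8%) higher in stromal cells at an adjusted p under 0.05. The background was 731 windows, or 0.0529% of those tested. None of the 211 was called lower by this test, and edgeR's exact test called none lower either. The quasi-likelihood test called 0.0522% of all tested windows lower, a share so small that 211 windows of any kind would mostly hold no such call. At an unadjusted p under 0.05, 118 of the 211 (55.9%) were higher and 3 lower in stromal cells, against 4.69% and 4.57% of all tested windows. The number of calls rested on single pools. It was 1 without epithelial vinclozolin pool 2, 5 without epithelial vinclozolin pool 3, 7 without stromal vinclozolin pool 2 and 14 without stromal vinclozolin pool 3, and the background fell to 0.00376%, 0.0102%, 0.0119% and 0.0255% of tested windows. Without epithelial vinclozolin pool 1 it was 23, against 0.038%. Without stromal vinclozolin pool 1 the calls fell to 17 (8.06%) although the background rose to 0.0731%. With the pool number as a block, since pools of the same number probably came from the same rats, 16 windows were called, all of them among the 25, against a background of 0.0316%. Taken alone, 3 pools against 3 cannot reach a two-sided p under 0.1 in an exact permutation test.

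**Figure D2:**
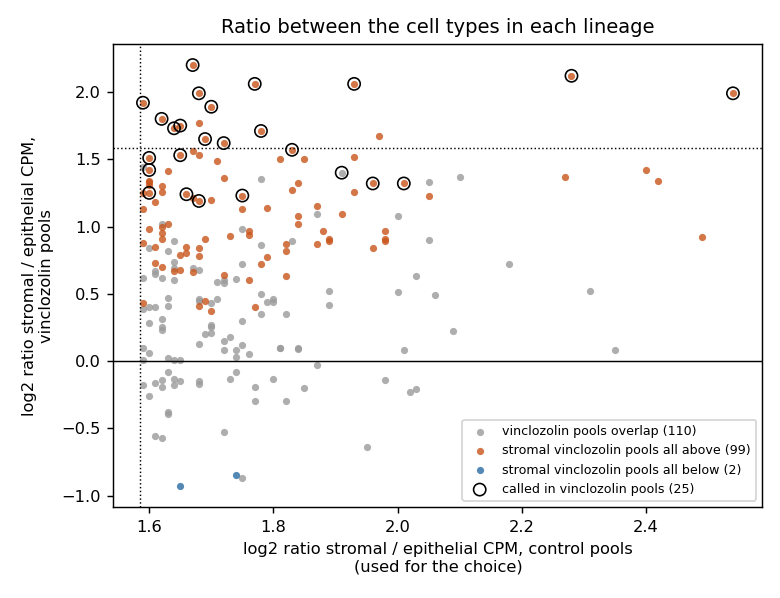
Log2 ratio of the mean stromal over the mean epithelial CPM of each of the 211 windows in the control pools (horizontal axis, used for the choice) and in the vinclozolin pools (vertical axis), with dotted lines at a ratio of 3. In 99 windows all stromal vinclozolin pools lie above all epithelial ones, in 110 the pools overlap and in 2 the stromal pools lie below, and the 25 called windows (circles) have log2 ratios of 1.19 to 2.20 on the vertical axis.

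The 25 called windows had a median log2 ratio of 1.65 in the vinclozolin pools, and the other 186 one of 0.62. That gap follows from the calls, which used the same pools. In the control pools, which chose the windows, the medians were 1.69 and 1.72, values that the choice had cut off below. Their median summed control count was 70, and that of the other windows 65. Over all 211 windows, the log2 ratios of the lineages had a Pearson correlation of 0.156, which is given as a description. By summed control count, 12 of the 140 windows from 60 to under 70 were called, 8 of the 45 from 70 to under 80, 4 of the 21 from 80 to under 100 and 1 of the 5 from 100. Among all tested windows the shares called higher in these ranges were 0.043%, 0.0579%, 0.0571% and 0.0545%. The median log2 ratios in the vinclozolin pools were 0.63, 0.88, 0.89 and 0.60 in the same order. In 24 of the 25 called windows all stromal vinclozolin pools lay above all epithelial ones, which is a description since the calls used these pools. The exception was at chromosome 1 from 199669301 to 199669400, where epithelial vinclozolin pool 1 overlapped stromal vinclozolin pool 3.

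The smallest p was found at chromosome 17 from 78520601 to 78520700 in the Rnor 6.0 build, which all coordinates here use. In the vinclozolin lineage its CPM was 0.109, 0.0549 and 0.0268 in the epithelial pools and 0.291, 0.232 and 0.237 in the stromal pools. The groups were well apart, and its log2 fold change was 2.01 with a standard error of 0.341 (adjusted p = 0.00103 by edgeR's quasi-likelihood test with Benjamini-Hochberg adjustment). Standard errors of log2 fold changes are approximate throughout. Each is the size of the fold change divided by the square root of the F statistic of that test, and was not estimated by the fit. This window also had the highest ratio of all 211 in the control pools, with 0.0330, 0.0573 and 0.0556 CPM in epithelial and 0.228, 0.311 and 0.311 CPM in stromal pools. Without epithelial vinclozolin pool 2 its adjusted p by the same test was 0.0536, the highest over the alternatives, which went down to 0.000317.

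A pair of adjoining windows on chromosome 20 came next. The window from 20548601 to 20548700 had 0.0847, 0.0549 and 0.0804 CPM in the epithelial and 0.273, 0.258 and 0.209 CPM in the stromal vinclozolin pools, a log2 fold change of 1.83 with a standard error of 0.329 (adjusted p = 0.00221, edgeR with Benjamini-Hochberg adjustment). Its neighbour from 20548501 to 20548600, which shares reads with it, had 0.230, 0.0641 and 0.0938 CPM against 0.318, 0.276 and 0.445 CPM, and a log2 fold change of 1.45. Here epithelial pool 1 was high and came near the lowest stromal pool without reaching it. The control pools of the same neighbour held 6, 10 and 14 counts in epithelial cells and 26, 18 and 37 counts in stromal cells, among the deepest of the chosen windows. DESeq2, fitted on chromosome 20 alone, called neither window, and its smallest adjusted p among the chosen windows there was 1.

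At chromosome 16 from 69363801 to 69363900, the vinclozolin pools had 0.0726, 0.0366 and 0.0402 CPM in epithelial cells and 0.227, 0.187 and 0.209 CPM in stromal cells, a log2 fold change of 2.09 with a standard error of 0.383 (adjusted p = 0.00319, edgeR with Benjamini-Hochberg adjustment). At chromosome 3 from 125581101 to 125581200 the values were 0.0726, 0.0366 and 0.0670 CPM against 0.254, 0.160 and 0.251 CPM. In both windows no stromal pool came near the epithelial ones. The highest mean ratio of the vinclozolin pools was at chromosome 1 from 104664201 to 104664300, a fold of 4.59, where epithelial pools 1, 2 and 3 had 8, 2 and 0 counts and the stromal pools 18, 16 and 16 counts. The low epithelial counts leave that ratio imprecise, and its log2 fold change of 2.17 had a standard error of 0.448. Single pools moved it further, to 3.86 without epithelial vinclozolin pool 1 and 1.69 without epithelial vinclozolin pool 3.

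The other regions with the smallest p-values showed the same order of the pools with different spreads. At chromosome 11 from 81464701 the log2 fold change was 1.78, at chromosome 3 from 21997301 it was 1.76 and at chromosome 5 from 157756501 it was also 1.76. The window at chromosome 12 from 45192301 to 45192400 had 0.121, 0.146 and 0.0134 CPM in the epithelial and 0.291, 0.276 and 0.264 CPM in the stromal vinclozolin pools. Its stromal pools were close together and its epithelial pools spread widely, and it was the only one of the 10 regions with the smallest p-values that was still called without epithelial vinclozolin pool 2 (adjusted p = 0.0239 by edgeR with Benjamini-Hochberg adjustment, with 0.00488 to 0.21 over its alternatives). At chromosome 6 from 147942201 to 147942300 the level was high in every pool, with 0.157, 0.165 and 0.134 CPM in epithelial and 0.291, 0.329 and 0.459 CPM in stromal pools, and the log2 fold change was 1.20 ± 0.242 (SE).

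**Figure D3:**
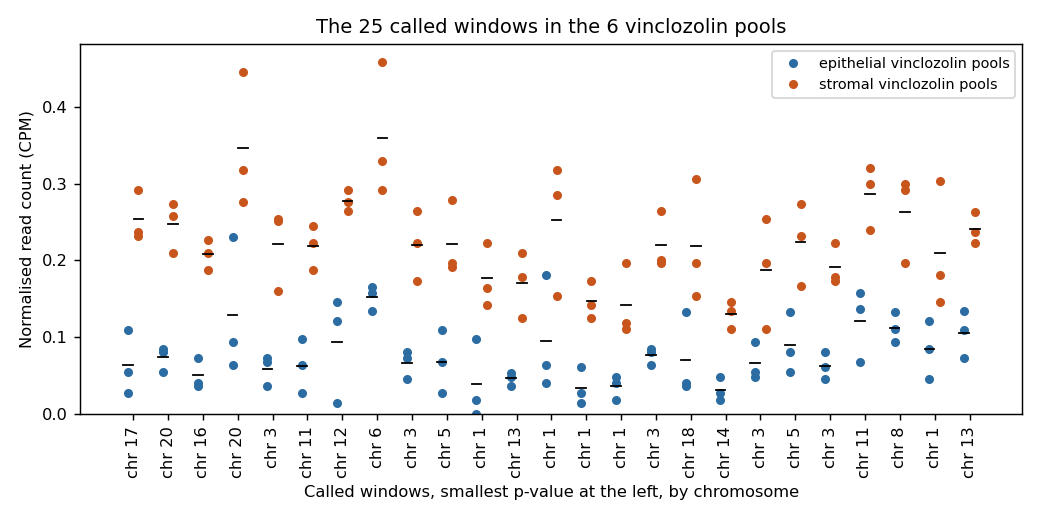
Normalised read count (CPM) of the 25 called windows in the 3 epithelial (blue) and 3 stromal (orange) vinclozolin pools, 1 point for each pool and a bar at each group's mean, ordered by p-value and marked with their chromosome. In 24 of the 25 windows every stromal point lies above every epithelial point, in the same pools that were used for the calls.

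In 12 windows the whole rule was met in each lineage on its own. Of these, 11 were called, which is a description since the calls used the same vinclozolin pools. A mean ratio of at least 3 in those pools, whatever their order, held for 0.0147% of all tested windows. The rule applied to the vinclozolin pools alone, with the summed count taken over those pools, chose 563 of the 26187330 autosomal windows. The limit of 60 counts was kept, but totals ran from 71843106 to 112304623 in vinclozolin and from 57135700 to 87262275 in control pools. The deeper vinclozolin pools thus met it at a lower CPM. The median of the mean stromal CPM was 0.181 in the vinclozolin choice and 0.252 in the control choice, each in its own lineage. The sizes of the choices, and shares of them, therefore do not compare the lineages. The 12 shared windows are 5.69% of the control choice and 2.13% of the vinclozolin choice. The 12 had a median log2 ratio of 1.69 in the control and 1.78 in the vinclozolin pools. The one of them that was not called lay at chromosome 4 from 148938401 to 148938500, with 2, 8 and 5 counts in the epithelial and 24, 14 and 13 counts in the stromal vinclozolin pools (adjusted p = 0.0518, edgeR with Benjamini-Hochberg adjustment).

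Levels of the 2 lineages in these windows cannot be compared as a lineage difference, because the control values were used for the choice. The stromal level was lower in the vinclozolin than in the control pools in 205 of the 211 windows, with a median log2 ratio of the lineages of -0.68, and the epithelial level was higher in 157, with a median of 0.34. Over all tested windows these medians were -0.13 and -0.09. When the vinclozolin pools chose the windows, the order turned. The 563 windows of that choice had a median log2 ratio of vinclozolin over control of 0.31 in stromal and -0.69 in epithelial cells, and their stromal over epithelial log2 ratio had a median of 1.73 in the vinclozolin and 0.77 in the control pools. In 224 of them (39.8%) the control pools were separate, against 6.51% of the windows tested here, which were filtered on control counts. The gap between the cell types was therefore narrower in whichever lineage had not been used for the choice.

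The same rule with the cell types exchanged also chose 211 windows (0.0153%), which by the rule cannot be shared with the first set. In the vinclozolin pools, 15 of these windows (7.11%) were called higher in epithelial cells by the same edgeR test, against 0.0522% of all tested windows, and all epithelial pools lay above all stromal pools in 86 (40.8%), against 8.25%. The 15 calls became 3 without epithelial vinclozolin pool 2, 7 without epithelial vinclozolin pool 3 and 4 without stromal vinclozolin pool 2. Shares of all tested windows called lower in stromal cells under these settings are not given. The shares called higher were 0.00376%, 0.0102% and 0.0119%, against 0.0529% with all pools. The 211 windows of the exchanged choice had a median log2 ratio, taken in the epithelial direction, of 0.57. It was 0.70 in the stromal direction for the windows described here. A difference between the sets was not tested.

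The windows lay apart from each other. With windows joined when their starts were at most 1000 bp apart, the 211 windows formed 202 regions, 9 of them pairs of adjoining windows and none longer. The median distance to the next region was 3.59 Mb, the smallest was 3.30 kb, and 2 regions had another within 100 kb. A pair shares reads and is not a repeat of a result. Besides the pair on chromosome 20, a pair at chromosome 1 from 82350101 to 82350300 held called windows. Its first window had 0.0484, 0.0183 and 0.0402 CPM in the epithelial and 0.118, 0.196 and 0.111 CPM in the stromal vinclozolin pools, and the second had a log2 fold change of 2.13 with a standard error of 0.457 (adjusted p = 0.0189, edgeR with Benjamini-Hochberg adjustment).

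The other 7 pairs were not called, and all their 14 windows had a higher mean in stromal than in epithelial vinclozolin pools. They lay at chromosome 1 from 140589001, chromosome 8 from 111377801, chromosome 9 from 16409501 and from 38465001, chromosome 11 from 71460401, chromosome 15 from 89705701 and chromosome 17 from 72422901. Nearest to a call was the pair on chromosome 11, whose window from 71460501 to 71460600 had 0.194, 0.183 and 0.161 CPM in epithelial and 0.345, 0.276 and 0.431 CPM in stromal pools (log2 fold change 0.94 ± 0.233 SE, adjusted p = 0.0722 by edgeR with Benjamini-Hochberg adjustment). In the pair on chromosome 8 the window from 111377901 had the smallest mean ratio of the 14, a fold of 1.55. The pools of 11 of the 14 windows were separate, and those of 1 window each on chromosomes 1, 9 and 15 overlapped. Among all tested windows 46.5% had a higher stromal mean and 6.12% had separate pools, and the 14 windows are 7 pairs that share reads.

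The single window with the highest summed control count lay at chromosome 6 from 30632601 to 30632700. It had 7, 16 and 9 counts in epithelial and 22, 21 and 44 counts in stromal control pools. In the vinclozolin pools it had 13, 25 and 9 counts in epithelial and 14, 19 and 22 counts in stromal cells, and the groups overlapped.

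The gap between the cell types was narrow in the genome. Averaged over the 211 windows, the stromal vinclozolin pools had 0.167 ± 0.00819 CPM (SD, n = 3 pools) at the window and the epithelial vinclozolin pools 0.106 ± 0.0113 (SD, n = 3), a ratio of 1.58. The ratio in the vinclozolin pools was 1.5 at 100 bp on either side, 1.34 at 200 bp, 1.27 at 300 bp, 1.14 at 400 to 500 bp and 1.09 at 600 to 1000 bp. In the control pools the same ratios were 3.37 at the window, 2.46, 1.72, 1.40, 1.22 and 1.11. A fall from the window is built into these control ratios, since the choice required a ratio of at least 3 there. Averaged over each of these ranges of distance, and over 1100 to 2000 bp, all stromal pools lay above all epithelial pools of the same lineage, though at some single distances from 800 bp on the pools overlapped. Averaged over 2100 to 5000 bp the pools were apart in the control but not in the vinclozolin lineage, at ratios of 1.04 and 1.02. The levels of each cell type rose towards the window in each lineage. Fragments are longer than a window, so windows next to each other share reads.

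**Figure D4:**
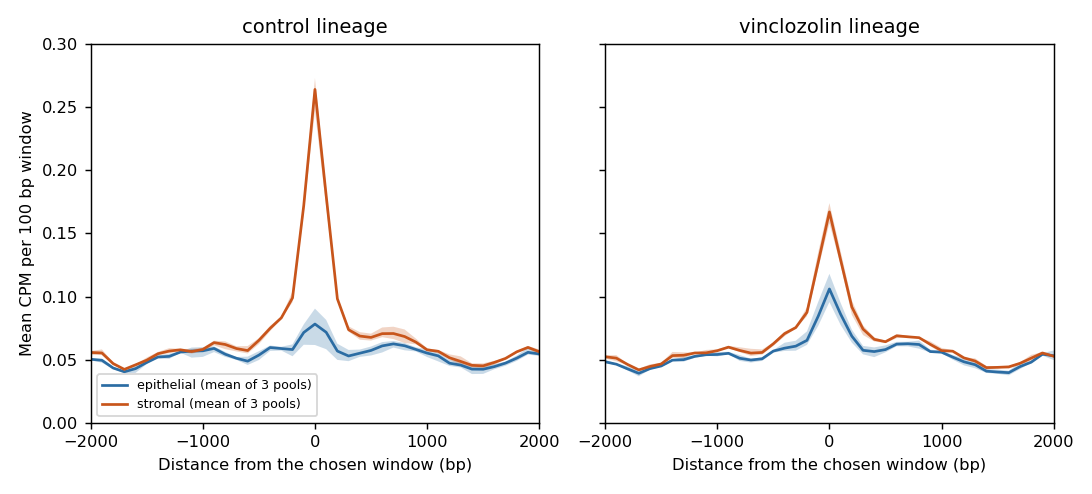
Mean CPM of 100 bp windows by their distance from the chosen window, averaged over the 211 windows, in the control (left) and vinclozolin (right) lineage, with lines for the mean of 3 pools and bands from the lowest to the highest pool. At the window the vinclozolin pools averaged 0.167 CPM in stromal and 0.106 CPM in epithelial cells, and the gap narrows with distance, to ratios of 1.07 in the control and 1.06 in the vinclozolin lineage over 1100 to 2000 bp.

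The places beside each window were also read, though they are not separate evidence, since fragments longer than a window can lie over both. Summed over 200 to 500 bp on both sides, all stromal vinclozolin pools lay above all epithelial ones at 82 of the 211 windows (38.9%), against 8.27% of all tested windows, and the opposite order held at 3 (1.42%), against 8.07%. The median log2 ratio of these flanks was 0.39 in the vinclozolin pools, against 0.01 for all tested windows. In the control pools it was 0.58, where reads shared with the windows had been used for the choice. Around the 25 called windows the median was 1.04 and the pools were separate at 17, which is a description since the calls used the same pools and reads are shared. Around the 186 other windows, the median was 0.33 and the pools were separate at 65 (34.9%).

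The chosen windows lay on every autosome. Chromosome 1 had 24, chromosome 5 had 18, chromosome 3 had 17, chromosome 10 had 16 and chromosome 19 had 3. Relative to 100000 tested windows, the numbers ran from 7.48 on chromosome 7 to 26.1 on chromosome 10. None of the 16 windows of chromosome 10 was called, while 5 of the 24 on chromosome 1 and 5 of the 17 on chromosome 3 were. Of all tested windows on these 3 chromosomes, 0.0654%, 0.0558% and 0.0512% were called higher. Within 2 Mb of a chromosome's end lay 1 window (0.474%), against 2.83% of all tested windows and 4 (1.90%) of the windows chosen with the cell types exchanged. These shares rest on few windows and are descriptions.

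The 5 windows with the lowest ratio in the vinclozolin pools had a mean below that of the epithelial pools. At chromosome 2 from 236365201 to 236365300 the CPM was 0.109, 0.110 and 0.174 in the epithelial and 0.0999, 0.00890 and 0.0974 in the stromal vinclozolin pools, and all stromal pools lay below all epithelial ones. At chromosome 9 from 49838801 to 49838900 the values were 0.218, 0.211 and 0.228 against 0.127, 0.196 and 0.0418, again without overlap. Neither passed the test, with log2 fold changes of -0.94 and -0.68 and adjusted p of 0.459 and 0.449 by edgeR with Benjamini-Hochberg adjustment. The pools overlapped in the other 3, at chromosome 5 from 98659301 (log2 ratio -0.87), chromosome 10 from 107100401 (-0.64) and chromosome 5 from 153902901 (-0.57).

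Close to the limit of the choice the windows behaved in several ways, and their values are given without a test. Just inside it, with a control ratio of 3.002, were windows at chromosome 1 from 205900001, chromosome 2 from 120301701 and chromosome 13 from 73175301, whose ratios in the vinclozolin pools were 1.35, 2.71 and 0.881. Just outside lay chromosome 20 from 31703201 (control ratio 2.999), chromosome 8 from 58096101 (2.996) and chromosome 8 from 127735901 (2.994), with ratios of 1.53, 1.19 and 0.969 in the vinclozolin pools.

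Gene names could be given for few windows, and these were picked after their values had been seen. They come from genes that the study lists close to the same positions, without an annotation of the build, so it is not given whether a window lies in an exon, an intron or between genes. The called window at chromosome 5 from 157756501 to 157756600 lay near Akr7a2, an aldo-keto reductase that detoxifies aldehydes. Its CPM was 0.109, 0.0275 and 0.0670 in the epithelial and 0.191, 0.196 and 0.278 in the stromal vinclozolin pools (adjusted p = 0.0122 by edgeR with Benjamini-Hochberg adjustment, with 0.0054 to 0.328 over its alternatives). It lost its call in 4 of the alternatives, each with 1 pool left out. Near Foxd2, which codes for a forkhead transcription factor, the window at chromosome 5 from 133704301 had 0.0484, 0.0915 and 0.0536 CPM in epithelial and 0.200, 0.151 and 0.125 CPM in stromal vinclozolin pools. The pools were separate there, but the window was not called (log2 fold change 1.28 ± 0.379 SE, adjusted p = 0.163, edgeR with Benjamini-Hochberg adjustment). The window near Grhl3, which codes for a grainyhead-like transcription factor of epithelia, was the one at chromosome 5 from 153902901. Grhl3 was on a list of epithelial marker genes that was drawn up with earlier results of these data known. Windows near the other genes of that list were not counted. This window therefore says nothing of the list. The Grhl3 window had 0.0660, 0.0458 and 0.111 CPM in epithelial and 0.158, 0.311 and 0.216 CPM in stromal control pools, which were used for the choice. In the vinclozolin pools it had 0.0726, 0.137 and 0.134 CPM in epithelial and 0.0727, 0.0623 and 0.0974 CPM in stromal cells, so the groups overlapped, with the higher mean in epithelial cells. The window at chromosome 10 from 107100401 lay near Dnah17, which codes for a dynein heavy chain of motile cilia and flagella, and its vinclozolin pools overlapped as well.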

How the data were processed

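MeDIP DNA of ventral prostate epithelial and stromal cells was sequenced in 12 pools, 3 of each cell type and lineage. Reads were trimmed (Trimmomatic) and aligned to Rnor 6.0 (Bowtie2, SAMtools) by the authors, whose counts in windows of 100 bp came from the MEDIPS package. The versions of these tools for the MeDIP reads are not given in the sources used here. Only the deposited counts were used, which are whole, not normalized, and never above 300 in a pool. The 12 columns of RPKM per pool were not used, nor were the authors' group means and their edgeR fold changes and p-values of the lineages.

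CPM was the count divided by the pool's column total. Stromal and epithelial vinclozolin pools were compared with edgeR 4.0.16 (quasi-likelihood test, R 4.3.3) over 1381769 autosomal windows with a summed control count of at least 60. TMM factors ran from 0.964 to 1.05. A seeded sample of 400000 windows gave the common dispersion. The adjustment of p-values was that of Benjamini and Hochberg (Benjamini-Hochberg). The fit was tested on simulated data. Totals of 57135700 to 112304623 per pool left few counts in a single window, which limits the precision of each value.

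By the study's methods, the tissue of a group of rats was combined and then split into both cell types, so pools with the same number probably share rats. Deviations of same-numbered epithelial and stromal pools from their group means had correlations of -0.062 to 7.9e-04 in the vinclozolin and -0.019 to -0.0061 in the control lineage. Those with other numbers had correlations of -0.033 to 0.052 and -0.0052 to 0.022. With so few counts in a window, values this near 0 cannot show whether pools share rats. The comparison was made without a block, with the block as an alternative. The other alternatives were other size factors, the exact test, DESeq2 1.42.0 on chromosome 20, other limits of choice and test, and leaving out each pool.

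The windows, lists and rules were chosen with earlier results of these data known. Regions named were the 10 with the most chosen windows, the 10 with the smallest p-values, the 5 windows of lowest vinclozolin ratio and those next to the ratio of 3. Lists of cell type marker genes had been drawn up, but their windows were not counted because an annotation of the build was not used here.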

Additional observations from a re-analysis of the deposited data

Results flagged for a closer look

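In 2 of the 211 windows the cell types stood in opposite order in the lineages, with all stromal pools above all epithelial pools in the control lineage, where the choice required it, and all stromal pools below all epithelial pools in the vinclozolin lineage. The window at chromosome 2 from 236365201 had a log2 ratio of -0.93 in the vinclozolin pools, with 9, 12 and 13 counts in epithelial and 11, 1 and 7 counts in stromal pools. The window at chromosome 9 from 49838801 had a log2 ratio of -0.85, with 18, 23 and 17 counts in epithelial and 14, 22 and 3 counts in stromal pools. The difference between the lineages was not tested in either, because their control values were used for the choice.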

How the results depend on the processing

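The number of windows called higher in stromal vinclozolin pools, 25 by edgeR's quasi-likelihood test, was 22 without TMM, 25 with median-of-ratios size factors and 24 by edgeR's exact test, with 22, 25 and 23 of them among the 25 and backgrounds of 0.0387%, 0.0518% and 0.0499%. With the replicate block by pool number it was 16. The window of smallest p in each of the 10 regions named for a small p was still called with the block. Values with the block are not given for the other called windows. Leaving out 1 vinclozolin pool gave 1 to 23 calls. At an adjusted p under 0.01 there were 6, against 0.011% of those tested. When windows were tested at a summed vinclozolin count of at least 10, or without a filter, 13 of the 211 (6.16%) were called in each case, against 0.0053% and 0.00297% of all windows tested. Other limits of the choice changed the windows themselves. A ratio of 2 chose 5785 windows with 151 called (2.61%), and a ratio of 4 chose 21 with 3 called (14.3%), against 0.0529% of those tested. A summed control count of at least 30 chose 7341 with 139 called (1.89%, against 0.0349%), and one of at least 100 chose 5 with 1 called (against 0.0582%). On chromosome 20 alone, with 5 chosen windows, the quasi-likelihood test called 2 and DESeq2 called 0, with 3 of the 5 at an unadjusted p under 0.05 by each. DESeq2 called 0 of the 36545 windows there, with 427 higher in stromal cells at an unadjusted p under 0.05, where the quasi-likelihood test called 55 in either direction and had 2006, and the cause was not tested.

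The number of windows with separate vinclozolin pools was 99, and 104 with TMM-scaled totals, for which the share among all tested windows is not given. The median log2 ratio of 0.70 was 0.51 with a pseudocount of 0.05 CPM, which draws ratios of low counts towards 0, 0.73 with medians of pools and 0.74 with TMM-scaled totals, the last chosen after seeing the data. Leaving out a vinclozolin pool gave 102 to 122 separate windows (48.3% to 57.8%) and medians of 0.61 to 0.78, while the share of separate windows among all tested rose from 6.12% to between 9.85% and 12.2%, since fewer pools had to be apart. Leaving out a control pool changed the choice to between 26 and 284 windows, with 26, 81 and 94 without stromal control pool 3, 1 and 2, and 217, 284 and 272 without epithelial control pool 1, 2 and 3. The limit of 60 counts then held for 5 pools, and without stromal control pool 1, 2 or 3 it removed 172, 174 and 195 of the 211 windows, while the ratio or the order of the pools removed 8, 1 and 5 more. Without epithelial control pool 1, 2 or 3 the limit removed 69, 115 and 94, and the ratio or order 80, 24 and 32, and windows not among the 211 came in. The windows of these choices had median log2 ratios of 0.30 to 0.86 and separate vinclozolin pools in 28.1% to 61.5%. Joining at 100 or 500 bp gave 202 regions, as at 1000 bp. For the windows chosen with the cell types exchanged, the 15 calls became 13 with the replicate block and 7 at a summed vinclozolin count of at least 10. They became 8 without a filter and 3 to 16 with a pool left out. Backgrounds in that direction are not given. The shares of all tested windows called higher in stromal cells were 0.0316%, 0.0053%, 0.00297% and, with a pool left out, 0.00376% to 0.0731%. Of the 15 single windows with the smallest p or lowest ratio, which were picked as extremes of these values, none changed direction. Their 180 recomputed values stayed on the same side of the threshold in 158 cases, and all of the 22 lost calls came from leaving out a pool. The 5 windows of lowest ratio were not called and so had no call to lose. Each of the 10 windows taken for a small p, 1 from each region, lost its call in 1 to 4 settings. Counts of 0 to 46 per window and pool limit what a single window can show.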

Other observations

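On the X chromosome, which the choice left out, the same rule took 2 of 36188 windows with a summed control count of at least 60, and 6 when the cell types were exchanged. Neither of the 2 had separate vinclozolin pools, and their median log2 ratio there was 0.39. On the Y chromosome and in mitochondrial DNA no window met the rule in either direction.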
